A study of Mus musculus with 6 samples.

Results

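The expression of 10 transcription factor genes that steer CD8 T cells towards effector or memory fates was followed in activated OT-I cells: Tcf7, Lef1, Id2, Id3, Tbx21, Eomes, Prdm1, Bach2, Zeb2 and Klf2. They were chosen by name, from what is known of the cell type, and make up 10 of the 49671 genes in the count tables. All 10 passed the filter on low counts, which kept 13996 genes. OT-I mice carry a transgenic T cell receptor that recognises the ovalbumin peptide SIINFEKL. The cells, labelled as naive CD8 T cells of splenocyte cultures, were stimulated with that peptide, offered by antigen-presenting cells, and RNA was taken at 48 h. Cultures received BiTS, a bispecific molecule built to bring the inhibitory receptor LAG-3 next to the T cell receptor, or BiTS(mut), or an isotype control antibody. The OT-I genotype and the peptide were common to the 3 groups, so no unstimulated or freshly isolated cells are compared here. Each group had 2 libraries. The titles number them 1 to 6, and 1 library of each treatment falls in the first set (titles 1 to 3) and in the second set (titles 4 to 6). The labels do not say that the sets are batches, nor whether the libraries came from separate mice or cultures, so each p-value speaks only of the spread among the 6 libraries, which may be technical.

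TCF-1 (the product of Tcf7) and LEF-1 are related HMG-box factors of naive and memory cells, and both are usually reduced as effector cells form. T-bet (Tbx21) and EOMES are T-box factors that drive cytotoxic genes, with T-bet tied to effector and EOMES to memory features. ID2 and ID3 lack a DNA-binding domain and act by capturing E proteins such as those encoded by Tcf3, Tcf4 and Tcf12, with ID2 favouring effector and ID3 memory cells. BLIMP-1 (Prdm1) and ZEB2 promote terminal effector differentiation, BACH2 restrains it, and KLF2 maintains naive-cell trafficking receptors such as that encoded by S1pr1.

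Gene counts totalled 10813123 to 15239077 per library. Added ERCC spike-in RNA took 3.36% to 4.03% of counts in the first set and 5.14% to 7.54% in the second. The T cell markers (12 genes) summed to 2566 to 3005 CPM (counts scaled to a common library total) in the first set and 3200 to 3429 CPM in the second. Markers of other cells were present too: dendritic cell markers (18 genes, among them Ccl22, Cd83 and H2-Aa) summed to 2432 to 2940 CPM in the first set and 1492 to 1644 CPM in the second. That sum is not specific to dendritic cells. It includes Ccr7 (433 to 773 CPM) and Batf3 (124 to 171 CPM), which also stand in the lists of T cell genes below. Macrophage and monocyte markers summed to 33.3 to 38.5 CPM and then 13.5 to 16.9 CPM, NK cell markers to 16.7 to 18.8 CPM and then 5.92 to 7.15 CPM, and B cell markers to 16.3 to 21.5 CPM and then 11.8 to 15.3 CPM. Defining genes of several of these types were nearly undetected: Pax5, Ncr1, Klrb1c, Fcgr1, Mertk and Mrc1 had at most 3 counts in any library, and Klra4, Siglech, S100a8 and S100a9 were at 0. Markers of CD4 T cells summed to 74.3 to 99.5 CPM, nearly all of it from Zbtb7b (69.9 to 95.6 CPM), while the defining genes Cd4 and Foxp3 were at 0.0822 to 0.518 CPM and 0.130 to 0.550 CPM. In bulk RNA, fewer cells of a type and less RNA per cell cannot be told apart.

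**Figure D1:**
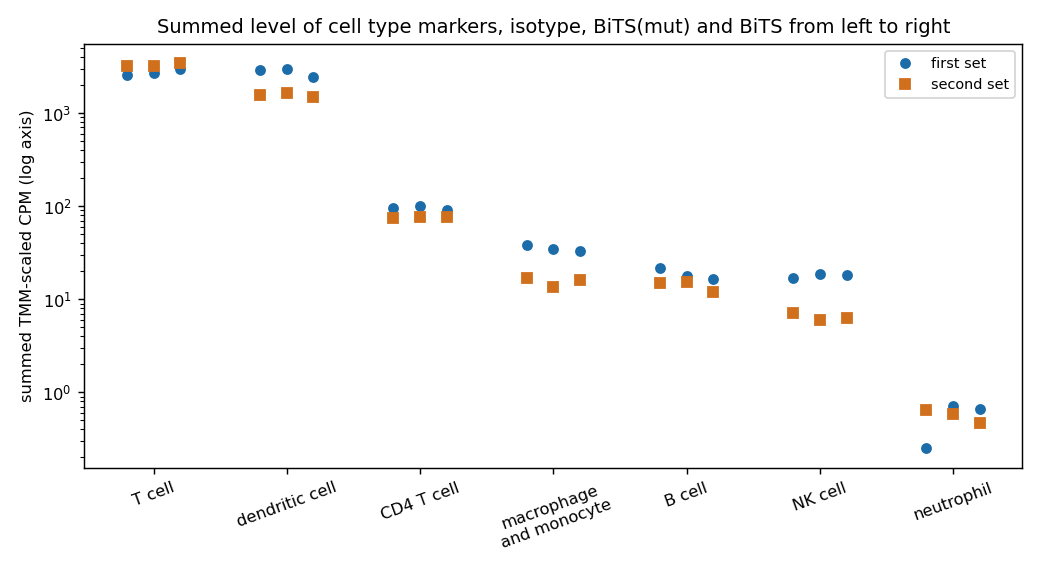
Summed level of each cell type marker list in each library, in CPM on a log axis, with 1 point per library, isotype, BiTS(mut) and BiTS from left to right and the sets by colour. Dendritic cell markers were at 1492 to 1644 CPM in the second set against 2432 to 2940 CPM in the first, whatever the treatment.

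Promoter sequences are shown for the members whose level differed most between sets in each direction, Id2 and Eomes, and for Tbx21, the T-box partner of Eomes. Each is the 250 bases before the RefSeq start (build GRCm38.p6, which is mm10), written 5′ to 3′ on the gene's strand. Capitals mark the E-box CANNTG, the element bound by E proteins.
Id2, chr12:25096093-25096342, minus strand: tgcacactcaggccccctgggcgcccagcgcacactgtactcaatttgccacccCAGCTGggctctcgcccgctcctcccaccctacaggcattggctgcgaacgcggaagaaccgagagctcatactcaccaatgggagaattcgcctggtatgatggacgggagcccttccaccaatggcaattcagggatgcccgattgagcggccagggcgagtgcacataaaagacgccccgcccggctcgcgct
Tbx21, chr11:97115332-97115581, minus strand: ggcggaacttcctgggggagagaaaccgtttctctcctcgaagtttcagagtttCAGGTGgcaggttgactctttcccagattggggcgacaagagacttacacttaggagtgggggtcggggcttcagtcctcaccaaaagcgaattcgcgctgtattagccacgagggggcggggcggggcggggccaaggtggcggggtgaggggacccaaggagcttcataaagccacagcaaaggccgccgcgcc
Eomes, chr9:118477939-118478188, plus strand: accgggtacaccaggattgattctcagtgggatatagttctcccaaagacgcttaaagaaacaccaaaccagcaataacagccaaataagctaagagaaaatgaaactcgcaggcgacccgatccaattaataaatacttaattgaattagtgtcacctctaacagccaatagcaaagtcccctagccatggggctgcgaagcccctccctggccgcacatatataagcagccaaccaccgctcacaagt

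Id2 and Tbx21 each held 1 E-box in this window, and Eomes held 0. Among 32817 mouse promoters of that length, 66.2% held at least 1 on either strand. The GC box GGGCGG occurred once in the Id2 window and 3 times in that of Tbx21, overlapping no E-box, and 32.7% of promoters held it. None of the 3 windows held the T-box core GTGTGA (12.3% of promoters) or the TCF/LEF core CTTTGA (13.8% of promoters) on either strand. These are matches of letters only. The Id2 window lies before its RefSeq start but inside the longer span that GENCODE M21 gives this gene.

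Levels per kilobase of exon (RPKM, from TMM-scaled counts) allow the genes to be ranked. The lengths merge all listed exons of a gene, from 1270 bases for Id2 to 19942 for Zeb2. Ranks and ratios depend on these lengths. By CPM alone, Klf2 and not Zeb2 was the lowest member in every library. Id2 led with 131 ± 61.0 RPKM (SD, n = 6 libraries), followed by Tcf7 at 46.5 ± 4.10 RPKM. Neither the range of Id2 (75.6 to 201 RPKM) nor that of Tcf7 (42.6 to 51.7 RPKM) met that of the next gene down. Id3 followed at 20.4 ± 6.11 RPKM and Tbx21 at 13.7 ± 2.39 RPKM, with ranges that overlapped. Lef1 (7.67 ± 0.505 RPKM), Bach2 (5.46 ± 2.04 RPKM), Eomes (3.33 ± 1.28 RPKM), Klf2 (2.53 ± 0.881 RPKM) and Prdm1 (1.52 ± 0.224 RPKM) came next, each overlapping its neighbours, although Lef1 stayed below Tbx21. Zeb2 was lowest at 0.455 ± 0.147 RPKM and overlapped no other member. The order shifted a little between sets: Tbx21 passed Id3 in the second set (means of 15.0 and 14.9 RPKM), and Eomes moved from rank 8 to rank 6.

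Among related pairs, the RPKM of Tcf7 was 5.78 to 6.32 times that of Lef1 in the 6 libraries, a narrow range. Id2 was at 4.72 to 8.15 times the level of Id3. Tbx21 was above Eomes in every library, at 5.26 to 6.27 times its level in the first set and 2.91 to 3.54 times in the second. Bach2 was at 2.60 to 4.95 times the level of Prdm1, a gene it is known to repress.

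**Figure D2:**
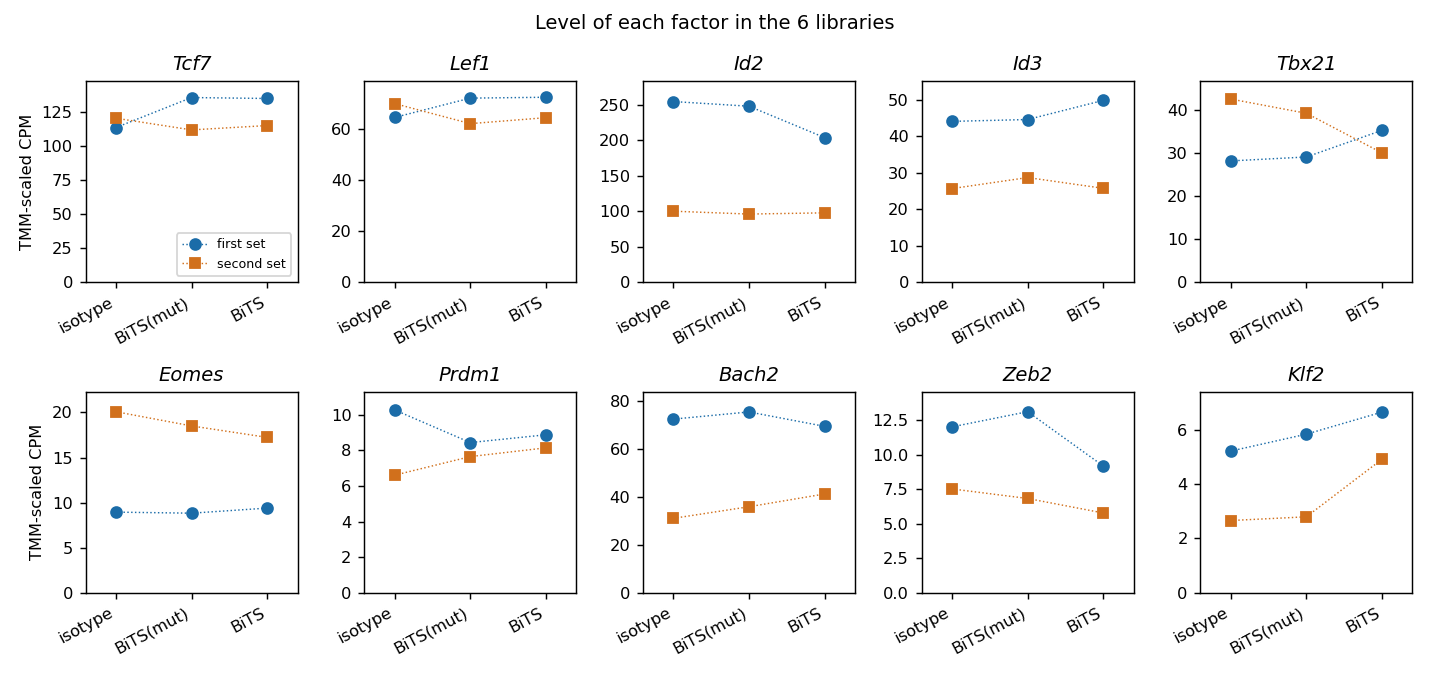
Level of each of the 10 genes in each of the 6 libraries, 1 panel per gene, in CPM on an axis that starts at 0, with the treatments side by side and the sets by colour and marker. Id2 is between 204 and 255 CPM in the first set and between 96.0 and 100.1 CPM in the second, while the libraries of Tcf7 and Lef1 lie close together.

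The design asks whether BiTS changed transcription relative to isotype control and to BiTS(mut). For these factors no change was detectable: 0 of the 10 genes were called in any of the 3 treatment comparisons by edgeR's quasi-likelihood test at a Benjamini-Hochberg adjusted p under 0.05. With 1 coefficient per group and no block, that test called 0 of 13996 genes (0%) in each comparison, and 176 (1.26%), 76 (0.543%) and 41 genes (0.293%) had an unadjusted p under 0.05 for BiTS against isotype, BiTS against BiTS(mut) and BiTS(mut) against isotype. With the set as a replicate block it called 476 genes (3.4%), 136 genes (0.972%) and 7 genes (0.05%), and again 0 of the 10 factors. A count of 0 in 10 is close to these shares. DESeq2, which called 0 genes without the block, called 155, 51 and 2 with it, with 0 of the 10 factors among them either way. Scaled to the spike-ins, with the block, edgeR called 0, 0 and 1 gene (158, 129 and 77 at an unadjusted p under 0.05), and the median of all genes moved to 0.05, 0.18 and -0.12. The calls named below for BiTS were made with the block and with scaling to the gene counts. Without the block but with no filter on low counts, edgeR called 11, 3 and 5 genes. None was a factor, and genes of the other lists were not looked up in that fit. The sizes of the differences moved less than the calls: Ifng, the gene of interferon gamma, was at -1.57 for BiTS against isotype with the block, -1.52 with spike-in scaling and the block, and -1.64 without the block. The first of these comparisons shares its BiTS libraries with the second and its isotype libraries with the third. No member had libraries of 2 treatments that did not overlap, against 20.8%, 16.6% and 13.7% of all genes in the same order.

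The sizes of the differences were small as well. With the block, the median absolute log2 difference of the 10 genes was 0.10 for BiTS against isotype, 0.03 for BiTS against BiTS(mut) and 0.07 for BiTS(mut) against isotype, beside 0.14, 0.11 and 0.10 for all 13996 genes. The signs were the same in both sets for 4, 4 and 5 of the 10 genes, beside 56.1%, 56.6% and 49.1% of all genes. All values below are log2 differences ± SE from the blocked fit, with 95% intervals, unless another scale is named. Without the block, the treatment intervals of all 10 genes were wider, such as -1.77 to 1.30 for Id2 in BiTS against isotype.

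**Figure D3:**
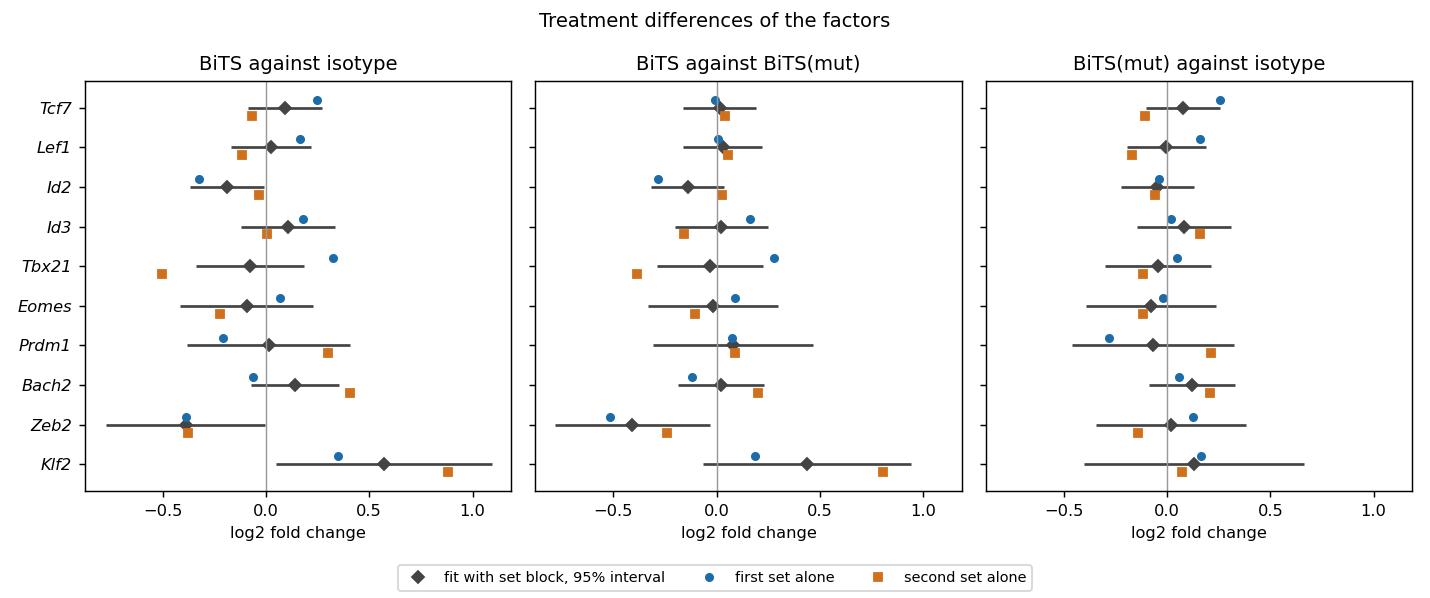
Log2 difference of each of the 10 genes in the 3 treatment comparisons, from edgeR's fit with the set as a block, with bars for the 95% interval and the value within each set as a separate point. Klf2 (0.57) and Zeb2 (-0.39) lie farthest from 0 for BiTS against isotype, neither called after adjustment.

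Tcf7, the gene of TCF-1, was at 114 CPM in the isotype, 136 CPM in the BiTS(mut) and 135 CPM in the BiTS library of the first set, and at 120.5, 112 and 115 CPM in the second. The treated libraries were the higher ones in the first set and the lower ones in the second. BiTS and isotype differed by 0.09 ± 0.09, with an interval of -0.09 to 0.27. Lef1 was at 64.3, 71.9 and 72.2 CPM in isotype, BiTS(mut) and BiTS of the first set and at 69.8, 61.9 and 64.3 CPM in the second, so that the treated libraries were again above isotype in the first set and below it in the second. Its BiTS against isotype difference was 0.03 ± 0.10 (interval -0.17 to 0.22). For these genes, changes larger than these bounds were outside the intervals.

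Tbx21 gave the clearest disagreement between sets. It was at 28.2 CPM in isotype, 29.1 CPM in BiTS(mut) and 35.3 CPM in BiTS of the first set, and at 42.5, 39.2 and 30.0 CPM in the second. BiTS was thus the highest library of the first set and the lowest of the second, with log2 differences from isotype of 0.33 and -0.50 and from BiTS(mut) of 0.28 and -0.39. Each of these rests on 1 library against 1, so whether the sets differ in this was not tested. The fitted difference over both sets was -0.08 ± 0.13 (interval -0.34 to 0.19). Eomes was at 8.94, 8.82 and 9.39 CPM in isotype, BiTS(mut) and BiTS of the first set and at 20.1, 18.5 and 17.2 CPM in the second. The BiTS against isotype difference of Eomes was -0.09 ± 0.16 (interval -0.42 to 0.23).

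Id2 was at 255 CPM in isotype, 248 CPM in BiTS(mut) and 204 CPM in BiTS of the first set, and at 100.1, 96.0 and 97.8 CPM in the second. The lower BiTS value was seen in the first set (-0.32) and hardly in the second (-0.03). The fitted difference was -0.19 ± 0.09, with an unadjusted p of 0.0401 and an adjusted p of 0.305 (edgeR quasi-likelihood test, Benjamini-Hochberg). Id3 was at 44.1, 44.6 and 49.9 CPM in isotype, BiTS(mut) and BiTS of the first set and at 25.7, 28.7 and 25.7 CPM in the second. Its BiTS against isotype difference was 0.11 ± 0.11 (interval -0.12 to 0.34).

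Bach2 was at 72.5, 75.5 and 69.5 CPM in isotype, BiTS(mut) and BiTS of the first set and at 31.1, 35.9 and 41.3 CPM in the second. BiTS was the lowest of the first set and the highest of the second, with differences from isotype of -0.06 and 0.41. Prdm1 was at 10.3, 8.44 and 8.87 CPM in the first set and 6.60, 7.65 and 8.14 CPM in the second, with BiTS below isotype in the first (-0.21) and above it in the second (0.30). The fitted BiTS against isotype differences were 0.14 ± 0.11 for Bach2 (interval -0.07 to 0.35) and 0.01 ± 0.20 for Prdm1 (interval -0.38 to 0.41).

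Zeb2 was at 12.0, 13.1 and 9.17 CPM in isotype, BiTS(mut) and BiTS of the first set and at 7.52, 6.83 and 5.77 CPM in the second. BiTS was the lowest library of both sets, with differences from isotype of -0.39 and -0.38. Leaving out 1 library at a time, with or without the block, the value for Zeb2 ran from -0.76 to 0.00, lowest without BiTS replicate 1 and nearest 0 without isotype replicate 1, both in the fit without the block. The fitted difference was -0.39 ± 0.19 against isotype and -0.41 ± 0.19 against BiTS(mut), with unadjusted p of 0.0486 and 0.0342 and adjusted p of 0.334 and 0.505 by edgeR's quasi-likelihood test with Benjamini-Hochberg adjustment. Dendritic cell markers moved the same way as Zeb2 and Id2: in BiTS against isotype, 6 of 15 tested were called lower (0 to 9 over the blocked alternatives), 0 higher, 14 of 15 had a negative difference, and the median was -0.35, while 4 of 12 T cell markers were called higher (0 to 5 over those alternatives) and 0 lower (0 to 1). The alternatives include scaling to the spike-ins and leaving out each library. Of all genes, 3.4% were called for BiTS against isotype in the blocked fit. The summed level of the dendritic cell list was 1492 to 2432 CPM in BiTS, 1565 to 2921 CPM in isotype and 1644 to 2940 CPM in BiTS(mut). The part of these cells in the values of Zeb2 and Id2 was not tested.

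Klf2 had the largest positive values. It was at 5.22, 5.84 and 6.65 CPM in isotype, BiTS(mut) and BiTS of the first set and at 2.66, 2.80 and 4.92 CPM in the second, so BiTS was highest in both. The fitted difference from isotype was 0.57 ± 0.26 (1.49-fold), with an interval of 0.05 to 1.09 on the log2 scale, an unadjusted p of 0.0332 and an adjusted p of 0.282 (edgeR quasi-likelihood test, Benjamini-Hochberg). The difference from BiTS(mut) was 0.44 ± 0.25, adjusted p 0.697 by the same test. Leaving out 1 library at a time, the value of Klf2 against isotype ran from 0.15 (without isotype replicate 4) to 1.12 (without isotype replicate 1), both in the fit without the block. These values rest on 29 to 90 counts per library, the fewest of any member. In all, 3 of the 10 factors (Id2, Zeb2 and Klf2) had an unadjusted p under 0.05 for BiTS against isotype, beside 14.8% of all genes, and 1 (Zeb2) for BiTS against BiTS(mut), beside 8.45%. For BiTS(mut) against isotype the number was 0, beside 4.43%, and the 10 differences lay between -0.08 and 0.13.

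Genes that these factors are known to regulate did not all share that lack of calls. Of 24 listed targets of T-bet and EOMES, 19 were tested. In the blocked fit of BiTS against isotype 5 fell and 0 rose, beside 3.4% of all genes called. The median was -0.23 beside -0.01 for all genes. Against BiTS(mut) 3 fell and 0 rose, beside 0.972% of all genes called. Over the blocked alternatives, with 19 or 20 targets tested (24 with no filter), these counts ran from 0 to 8 and from 0 to 4 lower. Without the block, and with the filter on low counts, 0 were called in any comparison. Ifng was at 83.7 and 198 CPM in the isotype libraries, 81.8 and 151 CPM in BiTS(mut), and 33.8 and 56.9 CPM in BiTS, first set before second. It fell by 1.57 ± 0.10 on the log2 scale against isotype (adjusted p 1.50e-16) and fell by 1.35 ± 0.10 against BiTS(mut) (adjusted p 5.89e-14) in edgeR's blocked quasi-likelihood test. Prf1, which encodes perforin, was at 77.2 and 134 CPM in isotype and at 37.0 and 62.8 CPM in BiTS, a difference of -1.08 ± 0.10. Both BiTS libraries lay below all 4 others for Ifng and for Prf1. The chemokine gene Xcl1 fell by 0.82 ± 0.17 against isotype. Gzmb, the gene of granzyme B, fell by 0.33 ± 0.09, but with BiTS replicate 2 left out it stood at -0.17, and with isotype replicate 4 left out at -0.13, neither called. Leaving out either BiTS(mut) library, or using DESeq2 with the block, also ended the call of Gzmb. Tbx21 and Eomes themselves differed by -0.08 and -0.09 in the comparison with isotype. For BiTS(mut) against isotype, the targets had a median of -0.14 beside 0 for all genes. In BiTS(mut) against isotype 17 of 19 targets had a negative difference and 0 were called, but 4 were called lower without isotype replicate 1.

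Of the 22 surface genes of naive and memory cells, 2 rose and 3 fell with BiTS against isotype, beside 3.4% of all genes called. The numbers were the same against BiTS(mut), beside 0.972% of all genes called. Both are from the blocked fit, and 0 were called without the block when the filter on low counts was kept. Over the blocked alternatives the counts ran from 0 to 4 higher and 0 to 3 lower against isotype. S1pr1, a KLF2 target, was at 24.4 and 17.6 CPM in isotype and 26.4 and 19.9 CPM in BiTS, and differed by 0.14 ± 0.13 (adjusted p 0.687, edgeR quasi-likelihood test). Ccr7 and Il7r, which encode the lymph-node homing receptor and the IL-7 receptor, were not called either, with differences of 0.13 ± 0.08 and 0.06 ± 0.09. Rasgrp2, an activator of the small GTPase Rap1, rose by 0.66 ± 0.11 against isotype.

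Among 44 tested genes of other CD8 fate factors, 2 rose and 3 fell in BiTS against isotype, and 0 were called against BiTS(mut) or between BiTS(mut) and isotype. Over all genes, the shares called in these blocked fits were 3.4%, 0.972% and 0.05%. Irf4, a factor induced by T cell receptor signalling, was at 215 and 299 CPM in isotype and 178 and 213 CPM in BiTS and fell by 0.38 ± 0.08, a call lost without BiTS replicate 2 (-0.30). Irf8 fell by 0.33 ± 0.08, Nr4a3 fell by 0.29 ± 0.09 and Ikzf3 rose by 0.33 ± 0.09, and each of these calls was lost without either BiTS library and without either BiTS(mut) library, that of Ikzf3 also without isotype replicate 1 and that of Nr4a3 without isotype replicate 4. Irf8 is also a factor of dendritic cells. The count for BiTS against isotype ran from 0 to 6 higher and 0 to 4 lower over the blocked alternatives. Against BiTS(mut) it was 2 higher and 3 lower without isotype replicate 1 and 2 higher and 4 lower without isotype replicate 4. For BiTS(mut) against isotype it was 1 higher without isotype replicate 1. Of the E protein and other ID genes, 0 of 4 tested were called in any treatment comparison.

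**Figure D4:**
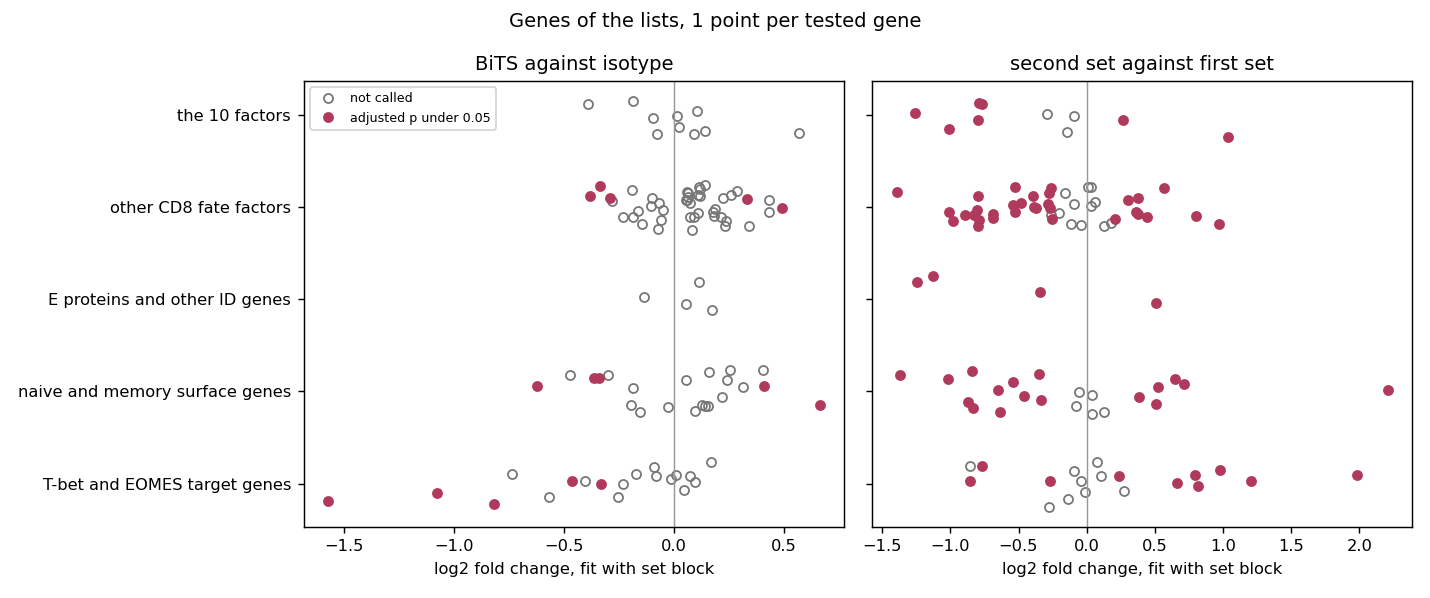
Log2 differences of each tested gene of the lists for BiTS against isotype and for the second set against the first, from edgeR's fit with treatment and set, with called genes filled. The T-bet and EOMES targets have a median of -0.23 for BiTS against isotype, while the 10 factors have a median of 0.02.

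The larger differences among the 10 factors lay between the sets of libraries. In a fit with treatment and set, 7 of the 10 differed between the second and the first set, 2 higher and 5 lower in the second. So many genes did so (52.7% of 13996, with 25.9% higher and 26.9% lower) that this count is not particular to the 10. By number, 3618 genes were higher and 3764 lower, but 61 higher and 6062 lower when libraries were scaled to the spike-ins. Their median absolute difference was 0.78, beside 0.33 for all genes, and their median was -0.53 beside 0.02. For 7 of the 10 the libraries of the sets did not overlap, beside 55.7% of all genes. What the sets differ in is not stated in the labels. The values follow as log2 differences, second against first, with adjusted p from edgeR's quasi-likelihood test with Benjamini-Hochberg adjustment.

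**Figure D5:**
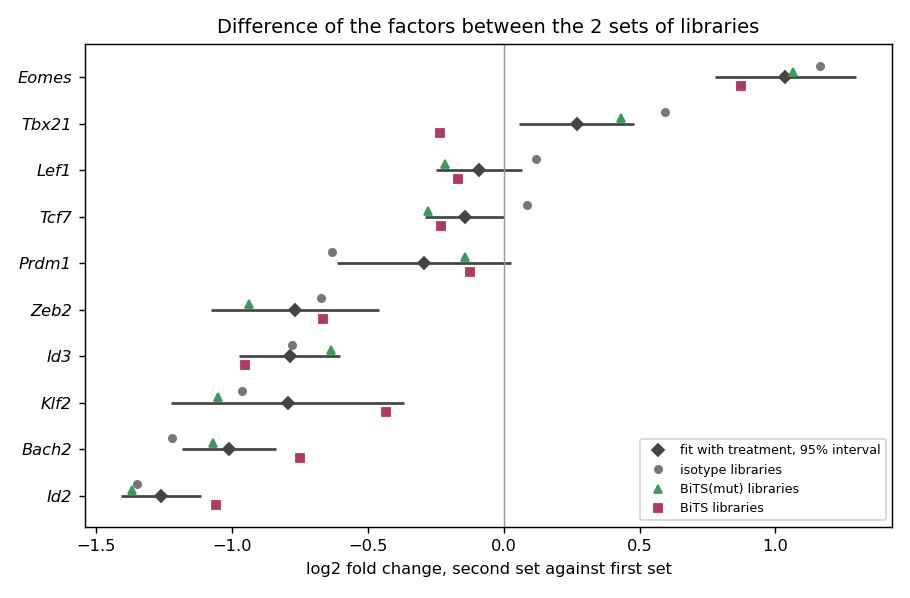
Log2 difference between the second and first set for each of the 10 genes, within each treatment (coloured points) and fitted over all treatments (diamonds with bars for the 95% interval). Id2, Bach2, Id3, Zeb2 and Klf2 are below 0 and Eomes is above 0 in every treatment, and Tbx21 is above 0 in isotype (0.60) and BiTS(mut) (0.43) but below 0 in BiTS (-0.23).

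Both ID genes fell. Id2 was at 236 ± 27.7 CPM in the first set and 98.0 ± 2.04 CPM in the second (SD, n = 3 libraries each), a difference of -1.26 ± 0.07, or 2.40-fold (adjusted p 1.16e-19). Id3 went from 46.2 ± 3.20 CPM to 26.7 ± 1.73 CPM (-0.79 ± 0.09, adjusted p 6.64e-10). Within treatments, Id2 differed by -1.35 in isotype, -1.37 in BiTS(mut) and -1.06 in BiTS, and Id3 by -0.78, -0.64 and -0.95. Of the E protein genes, Tcf4 fell by 1.25 ± 0.11 and Tcf12 fell by 0.35, whereas Tcf3, which encodes E2A, rose by 0.51 ± 0.07. Id1 fell by 1.13 ± 0.18. The Tcf3 difference was -0.26 and not called when libraries were scaled to the spike-ins.

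The T-box genes were the 2 members called higher. Eomes stood at 9.05 ± 0.298 CPM in the first set and 18.6 ± 1.43 CPM in the second, and rose by 1.04 ± 0.13 (2.05-fold, adjusted p 2.92e-09), with 1.16, 1.07 and 0.87 in isotype, BiTS(mut) and BiTS. Tbx21 stood at 30.8 ± 3.87 and 37.3 ± 6.50 CPM and rose by 0.27 ± 0.11 (adjusted p 0.0283), but its libraries overlapped. The Tbx21 call was lost without isotype replicate 1 or 4 (0.11 and 0.11) and without BiTS(mut) replicate 1 or 2 (0.18 and 0.18), with no filter on low counts, with no treatment term (adjusted p 0.0816) and with DESeq2 (adjusted p 0.184). Without BiTS replicate 1 or 2 the difference of Tbx21 was larger, at 0.50 and 0.51. The values of Eomes and Tbx21 are relative to the total of each library. Scaled to the spike-ins, the median of all genes was -0.74, Eomes was at 0.27 (adjusted p 0.495) and Tbx21 at -0.50 (adjusted p 0.213), so the rise of Eomes was lost and that of Tbx21 changed sign. Among targets of the pair, 7 of 19 rose and 3 fell between sets, a share like the 52.7% of all genes, and with spike-in scaling 1 was higher and 7 lower. Il18r1, a subunit of the IL-18 receptor, rose by 1.98 ± 0.12, from 6.36 to 8.36 CPM in the first set to 28.6 to 31.1 CPM in the second. Ifng rose by 0.98 ± 0.08 and Prf1 rose by 0.66 ± 0.08, to 0.20 and -0.09 when scaled to the spike-ins and then not called. Il18r1, Ifng and Prf1 are all from the 7 targets that rose, and the 3 that fell are not named here.

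Bach2 fell from 72.5 ± 3.01 to 36.1 ± 5.10 CPM (-1.01 ± 0.09, 2.02-fold, adjusted p 4.61e-14). Prdm1, at 9.19 ± 0.957 and 7.46 ± 0.786 CPM, was lower in every library of the second set but was not called (-0.29 ± 0.16, adjusted p 0.117). Zeb2 fell from 11.4 ± 2.03 to 6.71 ± 0.878 CPM (-0.77 ± 0.15, adjusted p 3.83e-05) and Klf2 fell from 5.90 ± 0.721 to 3.46 ± 1.27 CPM (-0.80 ± 0.21, adjusted p 0.00156). Under spike-in scaling these were all lower still, at -1.78 for Bach2, -1.53 for Zeb2, -1.57 for Klf2 and -1.06 for Prdm1, and Prdm1 was then called. Id2, Id3, Bach2, Zeb2 and Klf2 were called lower in all 12 fits of the set comparison, each replicate left out in turn included.

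Tcf7 and Lef1 were the steadiest, at 128 ± 12.6 and 116 ± 4.32 CPM for Tcf7 and 69.5 ± 4.47 and 65.3 ± 4.03 CPM for Lef1. Their differences of -0.14 ± 0.07 and -0.09 ± 0.08 were not called (adjusted p 0.0913 and 0.336), with intervals of -0.29 to 0.00 and -0.25 to 0.07. Both were called lower without isotype replicate 1 or 4 and with spike-in scaling (-0.90 and -0.85).

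Markers of other cells moved with the sets. Of 15 tested dendritic cell markers 13 were lower and 1 higher in the second set (median -1.0), as were 3 of 4 macrophage and monocyte markers and 3 of 3 NK cell markers, while 7 of 12 T cell markers were higher and 1 lower (0 and 2 with spike-in scaling). Id2 and Zeb2 are also expressed by dendritic and NK cells. The part of these cells in the set differences was not tested. Beside the 52.7% of all genes called between sets, the other fate factors gave 9 higher and 23 lower of 44 (0 and 28 with spike-in scaling), with Bcl6 at -1.39, Hif1a at -0.98, Bhlhe40 at -0.89 and Stat3 at -0.80. Of the naive and memory surface genes 6 of 22 were higher and 11 lower (1 and 13 with spike-in scaling), with Ly6c2 at 2.21 and Cxcr4 at -1.37.

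Likeness of pattern was measured as the Pearson correlation of log2 CPM over the 6 libraries, among 9783 other genes (9784 for Klf2), and is a description only, since all genes share the libraries and the difference between sets. Id2 was most like Tcf4 (r = 0.9987) and Pdlim5, Id3 most like Runx2 (r = 0.9987) and Tubb2b, and Eomes most like Dhcr7 (r = 0.9998) and Nasp. Bach2 was closest to Tram2 and Slc41a2, Zeb2 to Cdyl and Cd80, and Klf2 to Mpp2 and Fbxl20. Cd80, a costimulatory ligand, is a gene of antigen-presenting cells. For Tcf7 the nearest were Zbed3 and Sf3a1, for Lef1 Zdhhc3 and Dhrs7, for Tbx21 Brms1 and Snrnp40, and for Prdm1 Zfp935 and Ccdc171. The members that differed most between sets had the most company: 1138 genes correlated with Id2 above 0.95 and 971 with Eomes, but 14 with Tcf7, 16 with Lef1 and 18 with Tbx21. Between members, Tcf7 and Lef1 correlated at 0.94 and Id2 and Id3 at 0.94, while Tbx21 and Eomes correlated at 0.68 and Bach2 and Eomes at -0.99.

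By the coordinates in the tables (mm10), the genes lie at chr11:52252371-52283014 (Tcf7), chr3:131110471-131224356 (Lef1), chr12:25093801-25096092 (Id2), chr4:136143497-136145755 (Id3), chr11:97098071-97115331 (Tbx21), chr9:118478212-118486132 (Eomes), chr10:44437177-44528501 (Prdm1), chr4:32238804-32586108 (Bach2), chr2:44983632-45117395 (Zeb2) and chr8:72319033-72321656 (Klf2). GENCODE M21 annotates all as protein-coding. Its span for Id2, chr12:25093799-25097140, is longer than the counted one, while the spans of the other members are the same. Exons of Lef1, Eomes, Bach2 and Zeb2 share 1208, 118, 537 and 467 bases with the opposite-strand genes Gm43352, Gm33460, Bach2os and Zeb2os. Those had 18 to 28, 9 to 28, 8 to 35 and 0 to 5 counts per library. Since the strand setting of the counting is not given in the sources used here, reads of these pairs cannot be told apart.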

How the data were processed

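RNA of 6 libraries was analysed, 2 per group. Per the file headers, the authors deposited raw counts per gene with exon intervals and lengths. The submitters' processing notes name mm10 and DESeq2. The sources used here do not give the aligner, the counter, the annotation or the strand setting. Symbols came from GENCODE M21 by identifier for 49326 of 49671 genes. The 345 without one held 0.0713% of counts. The 92 spike-ins stayed out of totals and scaling. A count of 3, the limit that a count of 0 allows, was 0.197 to 0.277 CPM, for counting error only.

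Counts were filtered with filterByExpr, scaled by TMM and tested with edgeR 4.0.16 (quasi-likelihood, two-sided; limma 3.58.1, R 4.3.3), with Benjamini-Hochberg adjustment over 13996 genes and a threshold of 0.05. The treatment fit had 1 coefficient per group and no block (3 residual degrees of freedom). The same fit with the set as a replicate block (2 residual degrees of freedom) is given beside it. The spread shared across genes added 3.14 degrees of freedom without the block and 45.9 with it. The set comparison used group and set. Intervals are at 95%. Alternatives were DESeq2 1.42.0, RLE size factors, spike-in scaling, no filter, and leaving out each library. The steps were tested on simulated data.

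The sets come from the title numbers. Within a set, the correlations between libraries of their deviations from group means were 0.635, 0.712 and 0.707, and chi-square per degree of freedom was 3.98 to 9.10 within sets and 26.8 to 40.0 across them. With 2 libraries per group these are the 3 distinct correlations, so the pairing rests on the data and not on a stated design.

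The 10 genes, the lists and the tests were chosen with earlier results of these data known. Named were all 10 genes, up to 4 called genes of each list by smallest p in the blocked fit, the 2 genes most correlated with each member at a mean CPM of at least 5, and genes with overlapping exons. S1pr1, Ccr7, Il7r, H2-Aa and Batf3, outside that rule, and the markers at or near 0 were named after their values were seen. Of 17 RefSeq promoter windows matching the 10 genes, 3 are printed. Results of 2 genes of the lists are not reported here; the list counts include them.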

Additional observations from a re-analysis of the deposited data

How the results depend on the processing

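In every one of the 22 settings of each treatment comparison, 0 of the 10 factors were called, among 630 values under alternatives, of which 113 changed sign. The counts over all genes did change. With the replicate block the calls were 476 for BiTS against isotype, 136 for BiTS against BiTS(mut) and 7 for BiTS(mut) against isotype. With no filter on low counts and no block they were 11, 3 and 5, with DESeq2 and the block 155, 51 and 2, with RLE size factors and the block 461, 148 and 7, and with no filter and the block 458, 155 and 14. Spike-in scaling with the block called 1 gene for BiTS(mut) against isotype. Leaving out 1 library, with or without the block, gave 0 to 937, 0 to 435 and 0 to 132 calls. A group then holds 1 library, which is assumed to vary like the others. The cause of these shifts was not tested. The block ended no call of a factor and made none.

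Leaving out libraries turned the sign of most factor differences in at least 1 fit, although only 113 of the 630 values under all alternatives changed sign. Without the block, a group with 1 library left lies in 1 set only. Treatment and set cannot be told apart in its values. The ranges below cover the fits with and without the block. For BiTS against isotype, the log2 differences ran from -0.083 to 0.263 for Tcf7, -0.136 to 0.181 for Lef1, -0.865 to 0.594 for Id2, -0.444 to 0.563 for Id3, -0.463 to 0.28 for Tbx21, -0.624 to 0.567 for Eomes, -0.271 to 0.366 for Prdm1 and -0.388 to 0.836 for Bach2. For BiTS against BiTS(mut), the log2 differences ran from -0.12 to 0.169 for Tcf7, -0.077 to 0.149 for Lef1, -0.819 to 0.661 for Id2, -0.512 to 0.445 for Id3, -0.421 to 0.32 for Tbx21, -0.533 to 0.586 for Eomes, -0.039 to 0.224 for Prdm1, -0.447 to 0.634 for Bach2, -0.807 to 0.143 for Zeb2 and -0.011 to 1.059 for Klf2. For BiTS(mut) against isotype, the log2 differences ran from -0.1 to 0.248 for Tcf7, -0.167 to 0.152 for Lef1, -0.897 to 0.784 for Id2, -0.292 to 0.515 for Id3, -0.321 to 0.275 for Tbx21, -0.712 to 0.604 for Eomes, -0.353 to 0.283 for Prdm1, -0.538 to 0.844 for Bach2, -0.526 to 0.426 for Zeb2 and -0.506 to 0.705 for Klf2.

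In the treatment comparisons, other choices turned the sign of small values, none of them called. For BiTS against BiTS(mut), Bach2 was at 0.022 with the block, 0.028 with DESeq2 and the block, 0.016 with RLE size factors and the block, 0.006 with no filter and the block, and 0.223 with spike-in scaling and the block. With spike-in scaling, without and with the block, Eomes was at 0.196 and 0.18 and Tbx21 at 0.129 and 0.137, and Id2 was at 0.047 with the block. Tcf7 was at -0.002 with no filter in both fits. For BiTS(mut) against isotype, Lef1 was at 0.004 and 0.002 with no filter, without and with the block, and at 0.023 with spike-in scaling. Id2 was at 0.062 with spike-in scaling, and with the block added Id3 was at -0.04, Tcf7 at -0.045 and Zeb2 at -0.095. Tbx21 was at 0.013 for BiTS against isotype with spike-in scaling. In the set comparison, spike-in scaling also turned values that had been called. Tbx21 went from 0.27 to -0.499, Tcf3 from 0.506 to -0.255 and Prf1 from 0.66 to -0.094, and these were then not called. Of 110 set values of the factors under 11 alternatives, 94 kept sign and side of the threshold, 8 lost a call, 7 gained one and 1 changed sign. The alternatives for genes of the other lists were chosen after seeing the data. Depth limits Klf2 most, with 29 counts in its lowest library.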
